A study of Danio rerio with 12 samples.

Results

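The genes described here encode the thin filament, the myosin light chains and the calcium-handling proteins of vertebrate muscle, together with the giant and Z-disc proteins that hold the sarcomere in place and the creatine kinases that buffer its energy. They were taken by symbol: troponins T, I and C of the skeletal and related families, tropomyosins, alpha-actins, alpha-actinins, myosin light chains and their kinases, myosin-binding proteins, parvalbumins, ryanodine receptors, calsequestrins, sarcoplasmic reticulum calcium pumps, creatine kinases, nebulins, titins, desmins, telethonin and an LDB3 protein. Of 82 genes with such symbols, 79 had a mean scaled count (fragments per gene divided by the size factor of the library) of at least 10 over the libraries. They stood among 18390 genes that passed this minimum and 32674 genes in all. The rule works on the first letters of a symbol, so 4 of the 79 (desi1a, desi2, tpmt.1 and tpmt.2) are not muscle genes by name: the first 2 belong to a deSUMOylating peptidase family and the others encode thiopurine methyltransferases. A symbol also does not show in which tissue a gene is expressed, and the rest of the 79 were not sorted by tissue. Some of them, such as single parvalbumins or kinases, may be read out from cells other than muscle.

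The embryos were EK zebrafish taken 5 days after fertilisation. These were F1 offspring of fish fed a diet with 0 (control), 1, 3 or 10 ppm methylmercury (MeHg) throughout life. Each diet had 3 libraries, each from a pool of 5 whole embryos, and muscle was therefore read out in a mixture with all other tissues. Whether pools of 1 diet had different parents or clutches is not stated in the labels, and the p-values therefore refer to the spread among pools only.

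Skeletal muscle shortens when myosin heads pull on actin. At rest tropomyosin, held by troponin T and troponin I, covers the binding sites, and calcium bound to troponin C moves it aside. Calcium leaves the sarcoplasmic reticulum through ryanodine receptors, is stored there on calsequestrin and is returned by the ATP-driven pump SERCA1 (atp2a1), while parvalbumin, a soluble calcium buffer of fast fibres, speeds relaxation. A zebrafish larva of this age swims mainly with fast trunk muscle, which makes up much of its body.

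The abundance of these transcripts is best compared per length, in FPKM (fragments per kilobase, scaled to the size of the library, as deposited). The parvalbumin genes pvalb1 and pvalb2 had the highest mean FPKM of all genes in the table, with 28106 and 26970, and the 2 together took 94.2% of the FPKM of the 9 parvalbumins. They were followed by mylpfa, a regulatory light chain gene of fast myosin, at 9066 FPKM and rank 8 of all genes, and by the light chain gene mylz3 at 7191 FPKM and rank 11. The fast troponin T gene tnnt3b had 6874 FPKM, the tropomyosin gene tpma 6457, the fast troponin I gene tnni2a.4 4915 and the fast troponin C gene tnnc2 3705.

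In several families 1 gene carried most of the signal. Of the summed FPKM of its family, tnnt3b held 89.7%, tpma 90.4%, tnni2a.4 78.4%, desma 96.6%, ryr3 83.4%, actn3a 82.8%, mybphb 77.2% and the SERCA1 gene atp2a1 77.9%. In others the signal was shared: the highest gene held 38.4% among the light chains (mylpfa), 41.0% among their kinases (mylk4a), 47.3% among the giant proteins (ttnb), 48.1% among the parvalbumins (pvalb1) and 50.1% among the calsequestrins (casq1a). Such shares depend on the length used for each gene. The titin genes ttna and ttnb had similar mean scaled counts, 10247 and 12953, but 27.3 and 397 FPKM, so their FPKM do not rank their abundance safely. The cytosolic creatine kinase genes ckma and ckmb were nearly level at 3762 and 4004 FPKM. The slow troponin T gene tnnt1 had 26.9 FPKM, far under its fast relative tnnt3b. The myosin light chain kinases were the lowest family, between 0.805 FPKM for mylk2 and 11.6 for mylk4a. Reads from close copies (pvalb1 and pvalb2, ckma and ckmb, the alpha-actins, atp2a1 and atp2a1l, the tandem tnni2a genes) could be shared between them in the authors' counting, so the split within such a pair is less certain than its sum.

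**Figure D1:**
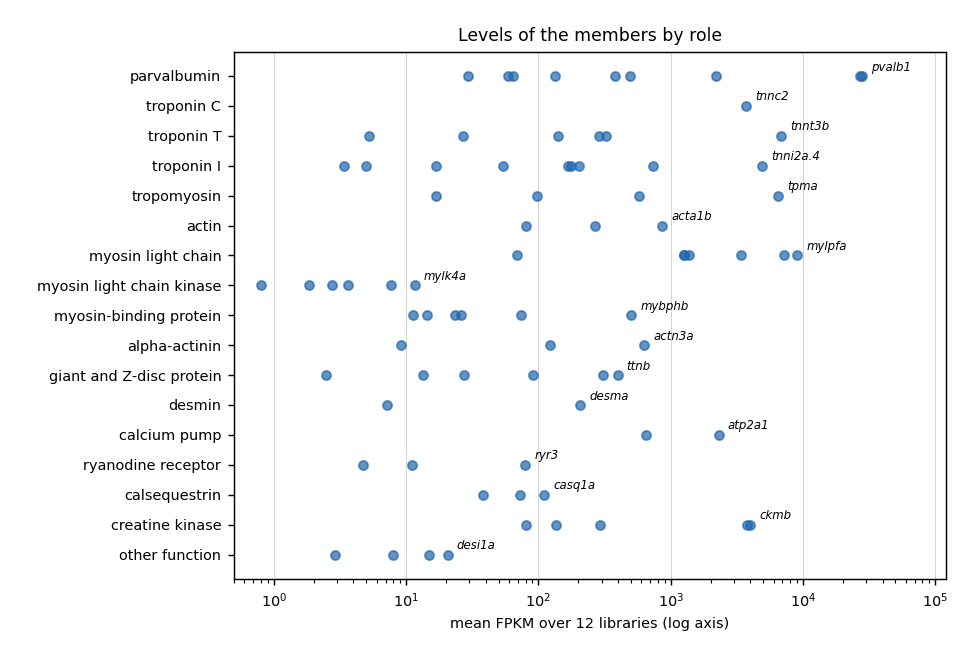
Mean FPKM over the 12 libraries (x axis, log scale) of each of the 79 genes, 1 point a gene, in rows by role, with the highest gene of each role named. The parvalbumins reach from 29.2 to 28106 FPKM, while the myosin light chain kinases lie at the low end.

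In all, the 79 genes took between 7.05% (1 ppm library 2) and 10.9% (1 ppm library 3) of the scaled counts of a library. The parvalbumins alone took up to 3.05% (control 3) and the others 4.60% to 8.15%. Both ends of the total therefore lay in the same diet. In pools of whole embryos, fewer muscle cells and less RNA per muscle cell cannot be told apart.

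The depth recovered from the values was 5.63 to 11.8 M (mega) fragments a library. One feature divides the libraries independently of muscle: the first component of 24 circadian clock genes held 88.3% of their variance, and its score was positive in control 2, control 3, 1 ppm 2 and 1 ppm 3 and negative in the other 8 libraries. All libraries of 3 and 10 ppm were on the negative side, so this score and diet are partly confounded.

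The design asks whether a MeHg diet of the parents was followed by a difference in gene expression in their offspring. For the 79 genes no change was called. With limma, 0 of the 79 genes passed an adjusted p of 0.05 at 1, 3 or 10 ppm against control, in the F-test for any difference among the diets or in the trend over the diets. Among all 18390 genes, the percentages called were 0, 0.0163 and 0 at 1, 3 and 10 ppm, 0.0163 in the F-test and 0.0218 in the trend, so a count of 0 among 79 genes is near this background. Genes of unadjusted limma p under 0.05 numbered 0, 5 and 1 of the 79 at 1, 3 and 10 ppm, against 1.96%, 10.4% and 5.71% of all tested genes. They numbered 3 in the F-test and 1 in the trend, against 8.59% and 10.3%. The limma-voom fits also called 0 of the 79 in each of these comparisons.

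The intervals show what sizes of change remain possible. The median log2 fold change of the 79 genes was -0.06 at 1 ppm, -0.02 at 3 ppm and -0.0016 at 10 ppm, beside -0.0078, -0.0041 and 0.01 over all tested genes. At 1 ppm 24 of 79 were higher than control, at 3 ppm 36 and at 10 ppm 38, beside 48.2%, 49.4% and 52.5% of all tested genes. The sign of the 1 ppm median rested on single libraries, since it was 0.11 without 1 ppm replicate 2. Over the 75 genes other than desi1a, desi2, tpmt.1 and tpmt.2 it was 0.02 without control replicate 3. Without control replicate 1 the median of the 79 stayed below 0, at -0.18. At 3 ppm it was 0.10 without replicate 2 of that diet and -0.16 without control replicate 1, and at 10 ppm 0.11 without control replicate 3 and -0.13 without control replicate 1. With the clock score in the fit the median was -0.03 at 1 ppm, 0.22 at 3 ppm and 0.20 at 10 ppm, with 30, 59 and 67 of the 79 genes above control, while the median over all tested genes was -0.0055, -0.03 and -0.01. None of the 79 passed in that fit either. Control 1 was the only control on the negative side of the score, where all libraries of 3 and 10 ppm lay. The median log2 deviation of the 79 genes from the mean of the gene was -0.25 in control 1, against 0.08 and 0.19 in controls 2 and 3. How far the adjusted values rest on this 1 control was not tested. The 95% interval of the fold change lay within a 2-fold change in either direction for 63 of 79 genes at 1 ppm, 63 at 3 ppm and 69 at 10 ppm, and within 1.5-fold for 37, 31 and 33.

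**Figure D2:**
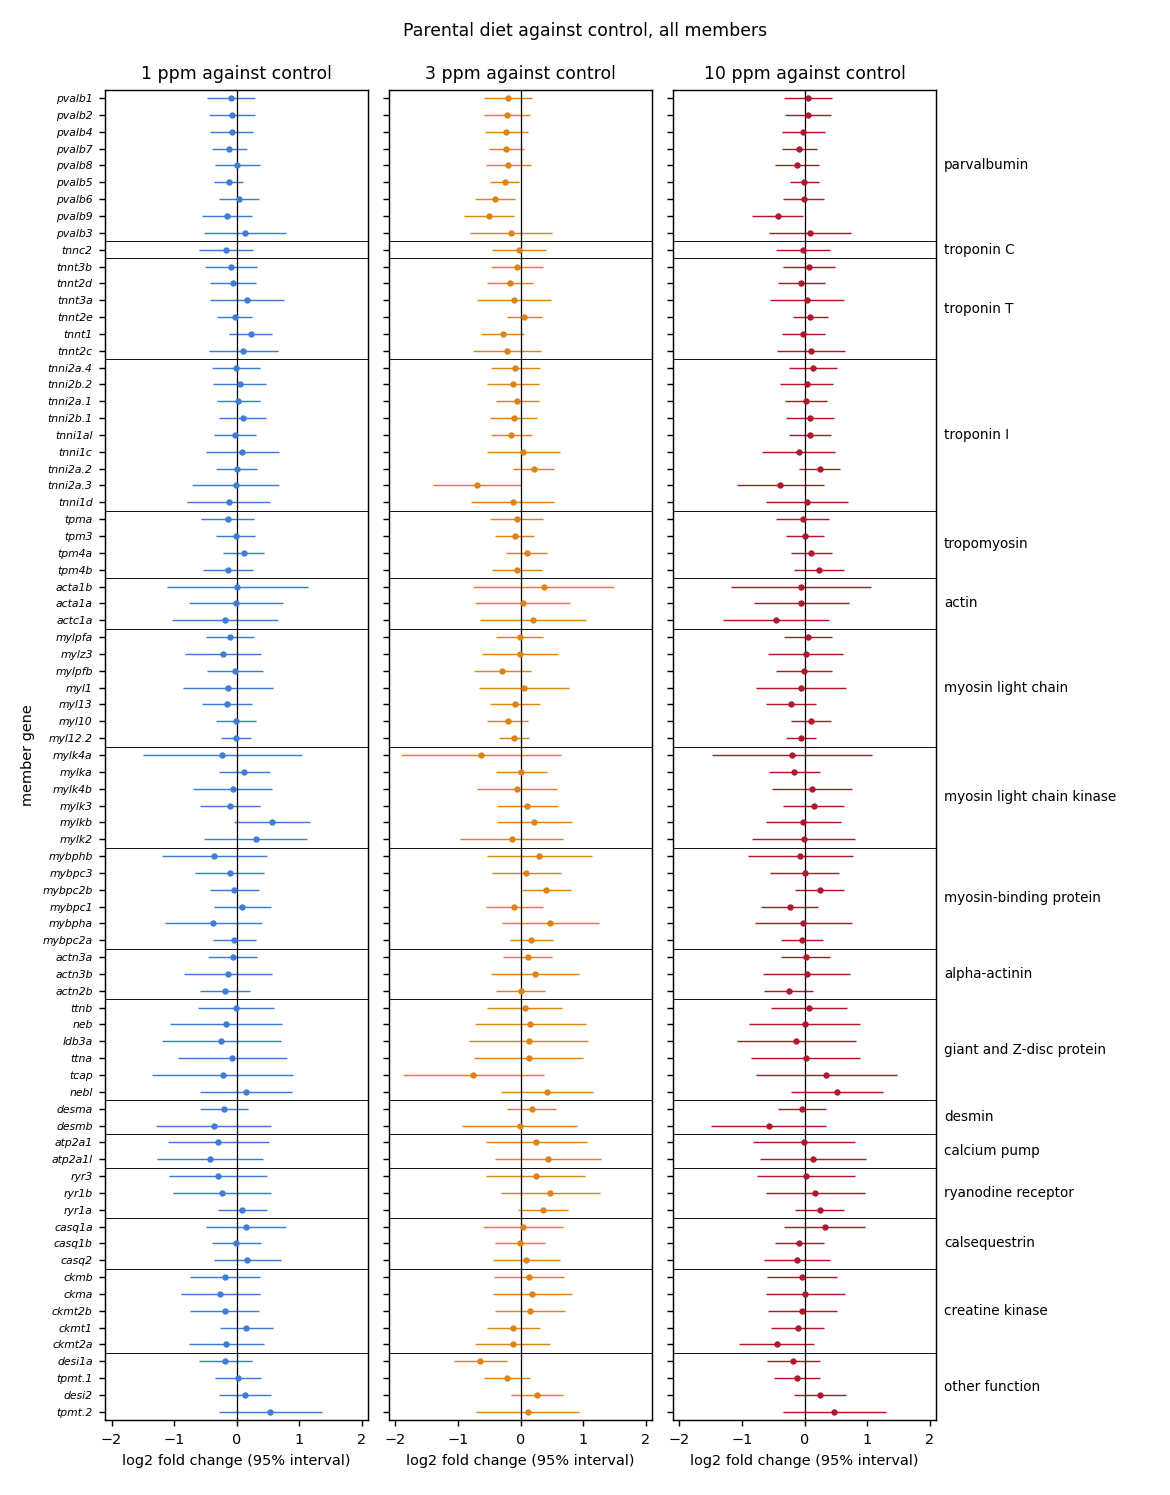
Log2 fold change of each of the 79 genes at 1, 3 and 10 ppm against control (points) with the 95% limma interval (lines), in rows by role. Intervals are short for parvalbumins, tropomyosins and most troponins and long for the actins, tcap, mylk4a, the calcium pumps and the ryanodine receptors; 0 of the 79 genes passed the adjusted threshold in any panel.

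Among the parvalbumins, pvalb1 had 62940, 79216 and 96389 scaled counts in control libraries 1 to 3, and 70482, 65004 and 86671 in those of 1 ppm. At 3 ppm it had 74650, 56710 and 74519, and at 10 ppm 89050, 69814 and 86651. The 4 diets overlapped, and the log2 fold changes were -0.09 (95% interval -0.48 to 0.30), -0.20 (-0.59 to 0.19) and 0.05 (-0.34 to 0.45) at 1, 3 and 10 ppm. For pvalb2 the values ranged from 59140 in 3 ppm library 2 to 101951 in 10 ppm library 1.

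At 3 ppm, all 9 parvalbumins had a fold change below 0, with a median log2 fold change of -0.23, and none passed. The median was between -0.19 and -0.35 when any 1 of the control or 3 ppm libraries was left out, with 8 or 9 genes below 0. With the clock score in the fit the median was -0.04 and 6 of 9 genes were below 0. At 1 ppm 6 of 9 were lower and at 10 ppm 6 of 9, with medians of -0.08 and -0.02. The direction at these diets turned with the setting. At 10 ppm 7 of 9 were higher with FPKM (median 0.03) and with the clock score in the fit (0.11), and at 1 ppm 6 of 9 were higher without control replicate 3 (0.03). The parvalbumin transcripts are short. In all 3 libraries of 3 ppm, genes of the 79 with a longer length implied by the deposited values stood higher (Spearman rho of 0.38, 0.45 and 0.33 in libraries 1 to 3). The part of length in the 3 ppm values was not tested.

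The parvalbumins of smaller level came closest to the threshold. The gene pvalb6 had 319, 347 and 304 scaled counts in control libraries, against 214, 274 and 241 at 3 ppm. These groups did not overlap (log2 fold change -0.42, SE 0.15, limma adjusted p = 0.431), while the 1 ppm (294, 378 and 328) and 10 ppm libraries (365, 339 and 262) overlapped the controls. The gene pvalb9 had 191, 236 and 313 in the controls, 203, 151 and 159 at 3 ppm and 204, 154 and 182 at 10 ppm. Its log2 fold changes were -0.51 (limma adjusted p = 0.435) and -0.43 (limma adjusted p = 0.847), and its slope over the ranked diets, -0.16 a step, had the smallest trend p of the 79 genes (limma adjusted p = 0.399). Over the 12 libraries pvalb9 had a Pearson r of 0.80 with the clock score, and with that score as a covariate its fold changes were -0.21 and -0.15. The third, pvalb5, had 467, 441 and 479 in control libraries, against 402, 385 and 374 at 3 ppm (log2 fold change -0.26, limma adjusted p = 0.452).

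**Figure D3:**
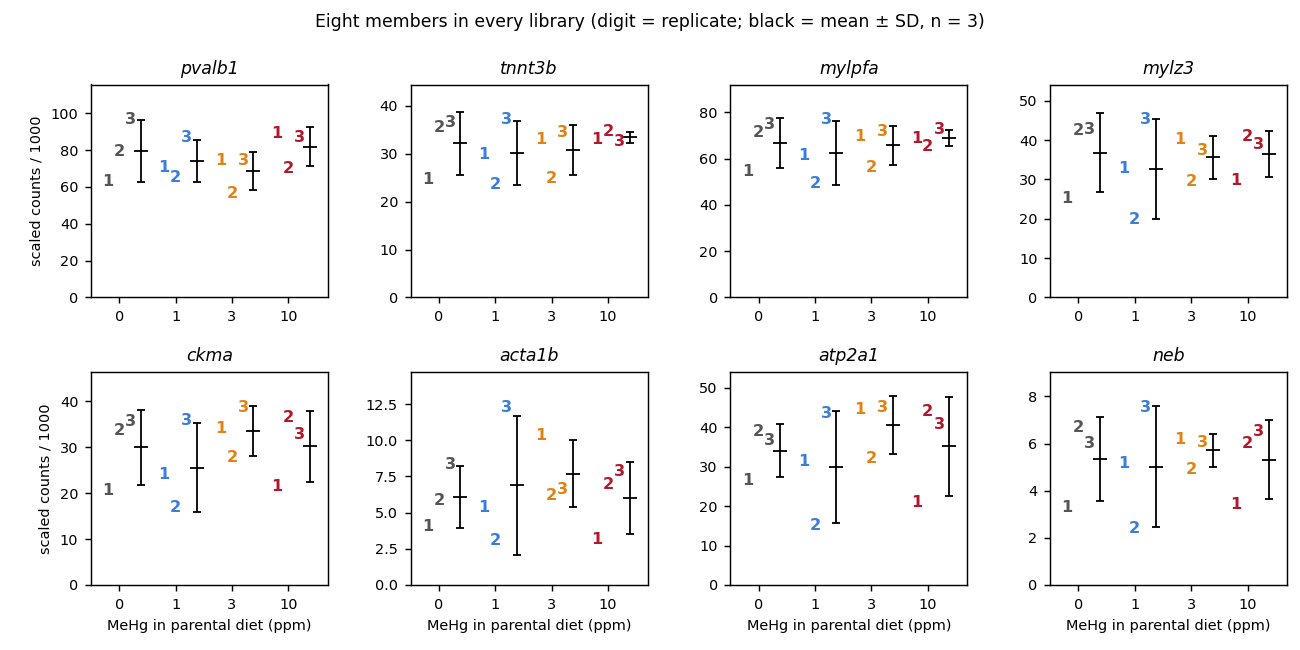
Scaled counts, divided by 1000, of 8 genes in every library by MeHg in the parental diet (x axis, ppm; each digit is a replicate, black marks give mean and SD, n = 3). Replicate 2 of 1 ppm is the lowest of all libraries for neb, atp2a1, ckma, mylz3, tnnt3b, mylpfa and acta1b, and replicate 3 of the same diet is at or near the top.

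The troponin genes make the calcium switch of the thin filament, and none of them passed. The troponin T gene tnnt3b had 24554, 35374 and 36478 scaled counts in the controls, 29899, 23550 and 37020 at 1 ppm, 32997, 24743 and 34324 at 3 ppm and 32962, 34716 and 32480 at 10 ppm. The 10 ppm libraries lay close together inside the range of the controls, and the log2 fold change there was 0.08 (95% interval -0.34 to 0.49). For the troponin C gene tnnc2 the lowest library was 1 ppm 2 with 16266 and the highest 1 ppm 3 with 28425, so the whole range of the study fell within 1 diet. The troponin I gene tnni2a.4 ran from 11417 in 3 ppm library 2 to 19003 in 10 ppm library 1, and its fold changes lay between -0.08 and 0.13 on the log2 scale.

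The slow troponin T gene tnnt1 had 107, 110 and 114 scaled counts in the controls, 131, 112 and 145 at 1 ppm, 84.0, 83.1 and 105 at 3 ppm and 127, 102 and 99.6 at 10 ppm. The 3 ppm libraries lay below all controls, and 64.3% of its variance was between diets, but the F-test did not pass (limma adjusted p = 0.578). The tandem gene tnni2a.3 had 31.6, 61.5 and 43.0 in the controls, 26.4, 56.6 and 53.8 at 1 ppm, 33.2, 29.6 and 19.2 at 3 ppm and 38.0, 35.5 and 27.3 at 10 ppm. It had the highest r with the clock score among the 79 genes, 0.81, and its log2 fold change at 3 ppm was -0.70 (limma adjusted p = 0.481), or -0.06 with that score as a covariate. Its neighbour by name tnni2a.2 ran from 175 to 258 scaled counts with an r of -0.65 with that score.

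Tropomyosin and actin, the other parts of the thin filament, differed in spread. The tropomyosin gene tpma had 34145, 48142 and 53850 scaled counts in the controls and 38351, 33450 and 50776 at 1 ppm, and the less abundant tpm3 stayed between 3994 and 5542 in all 12 libraries. The skeletal alpha-actin gene acta1b had 4026, 5856 and 8307 in the controls, 5331, 3057 and 12262 at 1 ppm, 10331, 6150 and 6600 at 3 ppm and 3176, 6928 and 7875 at 10 ppm. Its 2 extreme libraries were 1 ppm 2 and 1 ppm 3, which differed 4.01-fold. The log2 fold changes were 0.01 (SE 0.51), 0.37 and -0.06 at 1, 3 and 10 ppm, with 95% intervals of -1.11 to 1.13, -0.76 to 1.49 and -1.18 to 1.07.

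The myosin light chains stiffen and tune the neck of the myosin head. At 1 ppm 7 of 7 genes were below control (median log2 fold change -0.11) and at 3 ppm 6 of 7 (-0.09). At 10 ppm 4 of 7 were below (-0.01), and none passed at any diet. The 1 ppm libraries were not alike: 4 of the 7 genes were lowest in 1 ppm library 2, and 5 were highest in 1 ppm library 3. The median log2 deviation from the mean of the gene was -0.07, -0.36 and 0.31 in 1 ppm libraries 1 to 3. In control libraries 1 to 3 it was -0.17, 0.13 and 0.31. The gene mylpfa had 54541, 71129 and 74868 scaled counts in the controls, 61470, 49117 and 76739 at 1 ppm, 69579, 56172 and 71838 at 3 ppm and 68730, 65399 and 72658 at 10 ppm. Its diets overlapped throughout (log2 fold changes -0.11, -0.02 and 0.06). The gene mylz3 spread more widely, from 19699 in 1 ppm library 2 to 45095 in 1 ppm library 3. At the other end, myl12.2, a light chain of the non-muscle type by its family, had the narrowest range of the 79 genes, 243 to 299 scaled counts.

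The kinases that phosphorylate myosin light chains were few in fragments. The gene mylkb had 31.6, 23.8 and 33.2 scaled counts in control libraries, against 47.6, 49.8 and 35.1 at 1 ppm, with no overlap (log2 fold change 0.56, 95% interval -0.04 to 1.17, limma adjusted p = 1.00). It was the only gene of the 79 wholly above control at 1 ppm, where 3.26% of all tested genes were. The gene mylk4a had the largest SD between libraries of a diet among the 79 genes (0.79 on the log2 scale), with 112, 269 and 506 in the controls, 184, 118 and 435 at 1 ppm, 198, 140 and 148 at 3 ppm and 145, 321 and 217 at 10 ppm.

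Myosin-binding proteins C and H sit on the thick filament and slow or brace the cross-bridges. At 3 ppm mybpc2b, a fast form, had 613, 611 and 602 scaled counts against 445, 456 and 471 in the controls. The 3 ppm libraries were the tightest group of this gene and lay above all controls (log2 fold change 0.41, SE 0.18, limma adjusted p = 0.458). At 1 ppm it had 521, 332 and 509, and at 10 ppm 412, 661 and 578. The dominant mybphb ran from 1779 to 5479, both in 1 ppm libraries, and mybpha from 70.1 in 1 ppm library 2 to 317 in 3 ppm library 1.

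Giant proteins set filament length and tie the Z discs together: nebulin runs along the thin filament, titin spans from Z disc to M band, and telethonin (tcap) caps titin at the Z disc. The nebulin gene neb had 3306, 6680 and 6019 scaled counts in the controls, 5146, 2405 and 7529 at 1 ppm, 6179, 4886 and 6061 at 3 ppm and 3394, 5987 and 6531 at 10 ppm. Control 1, 1 ppm 2 and 10 ppm 1 were low, and the log2 fold changes of -0.17, 0.15 and -0.00079 were small beside an SE of 0.40. The titin gene ttnb ran from 7642 to 17188 with 1.19% of its variance between diets. The gene tcap had 30.8, 131 and 105 in the controls, 42.5, 51.5 and 121 at 1 ppm, 38.3, 39.3 and 57.0 at 3 ppm and 67.8, 111 and 118 at 10 ppm. Adding the clock score to the fit took the log2 fold change of tcap from 0.35 to 1.51 at 10 ppm and from -0.76 to 0.49 at 3 ppm. Neither version passed.

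Desmin links Z discs to one another and to the membrane. The main gene desma ran from 1351 to 2329, and desmb, with 34.7 to 125 scaled counts, did not follow it closely (r of 0.45 over the 12 libraries). The alpha-actinins anchor thin filaments in the Z disc, and actn3a ran from 8195 in 1 ppm library 2 to 13309 in 1 ppm library 3.

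The calcium-release and calcium-uptake genes were the only roles of more than 1 gene in which every gene lay above control at 3 ppm, apart from the actins. The SERCA1 gene atp2a1 had 26379, 38968 and 36682 scaled counts in the controls, 31189, 15166 and 43344 at 1 ppm, 44469, 31927 and 44959 at 3 ppm and 20811, 43953 and 40634 at 10 ppm. Its log2 fold change at 3 ppm was 0.25 (95% interval -0.56 to 1.06), and the groups overlapped. The ryanodine receptor gene ryr1b had 723, 854 and 824 in control libraries, against 1040, 964 and 1364 at 3 ppm, with no overlap (log2 fold change 0.47, 95% interval -0.31 to 1.26, limma adjusted p = 0.637). The spread that limma uses is taken from all 4 diets, and at 1 ppm the same gene had 910, 372 and 924 and at 10 ppm 550, 1264 and 1046. The median of the 3 receptor genes at 3 ppm was 0.35 and stayed between 0.30 and 0.44 when any 1 control or 3 ppm library was left out, with 3 of 3 above control each time. The median of the 2 pump genes was 0.35, and 0.15 without control replicate 1. With the clock score in the fit it was 0.62, and that of the receptors 0.40, and none passed. The receptor transcripts are long, and the part of length in these values was likewise not tested.

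Calsequestrin and creatine kinase gave no separation. The gene casq1a ran from 520 to 1109 scaled counts. The creatine kinase gene ckma had 20676, 33705 and 35621 in the controls, 23957, 16787 and 35911 at 1 ppm, 34114, 27834 and 38639 at 3 ppm and 21392, 36370 and 32729 at 10 ppm. Its highest and lowest libraries differed 2.30-fold, and its log2 fold changes were -0.26, 0.19 and 0.01 with an SE of 0.29.

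Counting genes whose 3 libraries lay wholly outside the controls gives the same picture. At 1 ppm 1 gene was above and 1 below (pvalb7), where 2.77% of all tested genes were below. At 3 ppm 3 genes were above (mybpc2b, ryr1a and ryr1b), or 3.80%, where 8.27% of all tested genes were. Below the controls at 3 ppm were 6 genes, or 7.59%, against 9.45% of all tested genes: pvalb5, pvalb6, pvalb7, tnnt1, desi1a and tpmt.1. At 10 ppm there were none in either direction, against 5.55% above and 4.81% below. The smallest p at 3 ppm belonged to desi1a, not a muscle gene by name, with 203, 248 and 310 scaled counts in control libraries, against 167, 147 and 165 at 3 ppm (log2 fold change -0.64, SE 0.20, limma adjusted p = 0.396, r of 0.74 with the clock score).

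The larger part of the variation lay between libraries of the same diet. Diet held a median of 18.8% of the variance of these genes, beside 29.6% over all tested genes. This share is not corrected for the number of diets and libraries, and it is above 0 even where diet has no effect. The share to be found without an effect was not computed. The shares given here, for single genes too, therefore do not measure an effect of diet. The SD between libraries of 1 diet had a median of 0.28 on the log2 scale for the 79 genes and 0.26 for all tested genes. Among genes with a mean scaled count of at least 1000 the values were 0.28 for 36 of the 79 genes and 0.19 for 799 of all tested genes. No test was made of this difference.

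The first principal component of the 79 genes held 51.8% of their variance over the 12 libraries, and the second 17.8%. Scores of the first were -2.76, 1.22 and 2.01 in control libraries 1 to 3 and -0.62, -4.60 and 2.95 at 1 ppm. They were 1.84, -0.92 and 0.84 at 3 ppm and -2.35, 1.12 and 1.27 at 10 ppm. Control, 1 ppm and 10 ppm each held 1 library far below 0, while the 3 ppm scores stayed closer together. Of the 79 genes, 33 were lowest in 1 ppm library 2, or 41.8% beside 7.97% of all tested genes, and 32 were highest in 1 ppm library 3, or 40.5% beside 15.5%. A further 18 were lowest in 3 ppm library 2, for which the share over all tested genes was not computed. Without 1 ppm library 2 the first component held 44.7%, and without that library, control 1 and 10 ppm 1 together it held 43.8%, with 24 of the 79 genes at an r over 0.8 in each case (27 with all libraries).

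**Figure D4:**
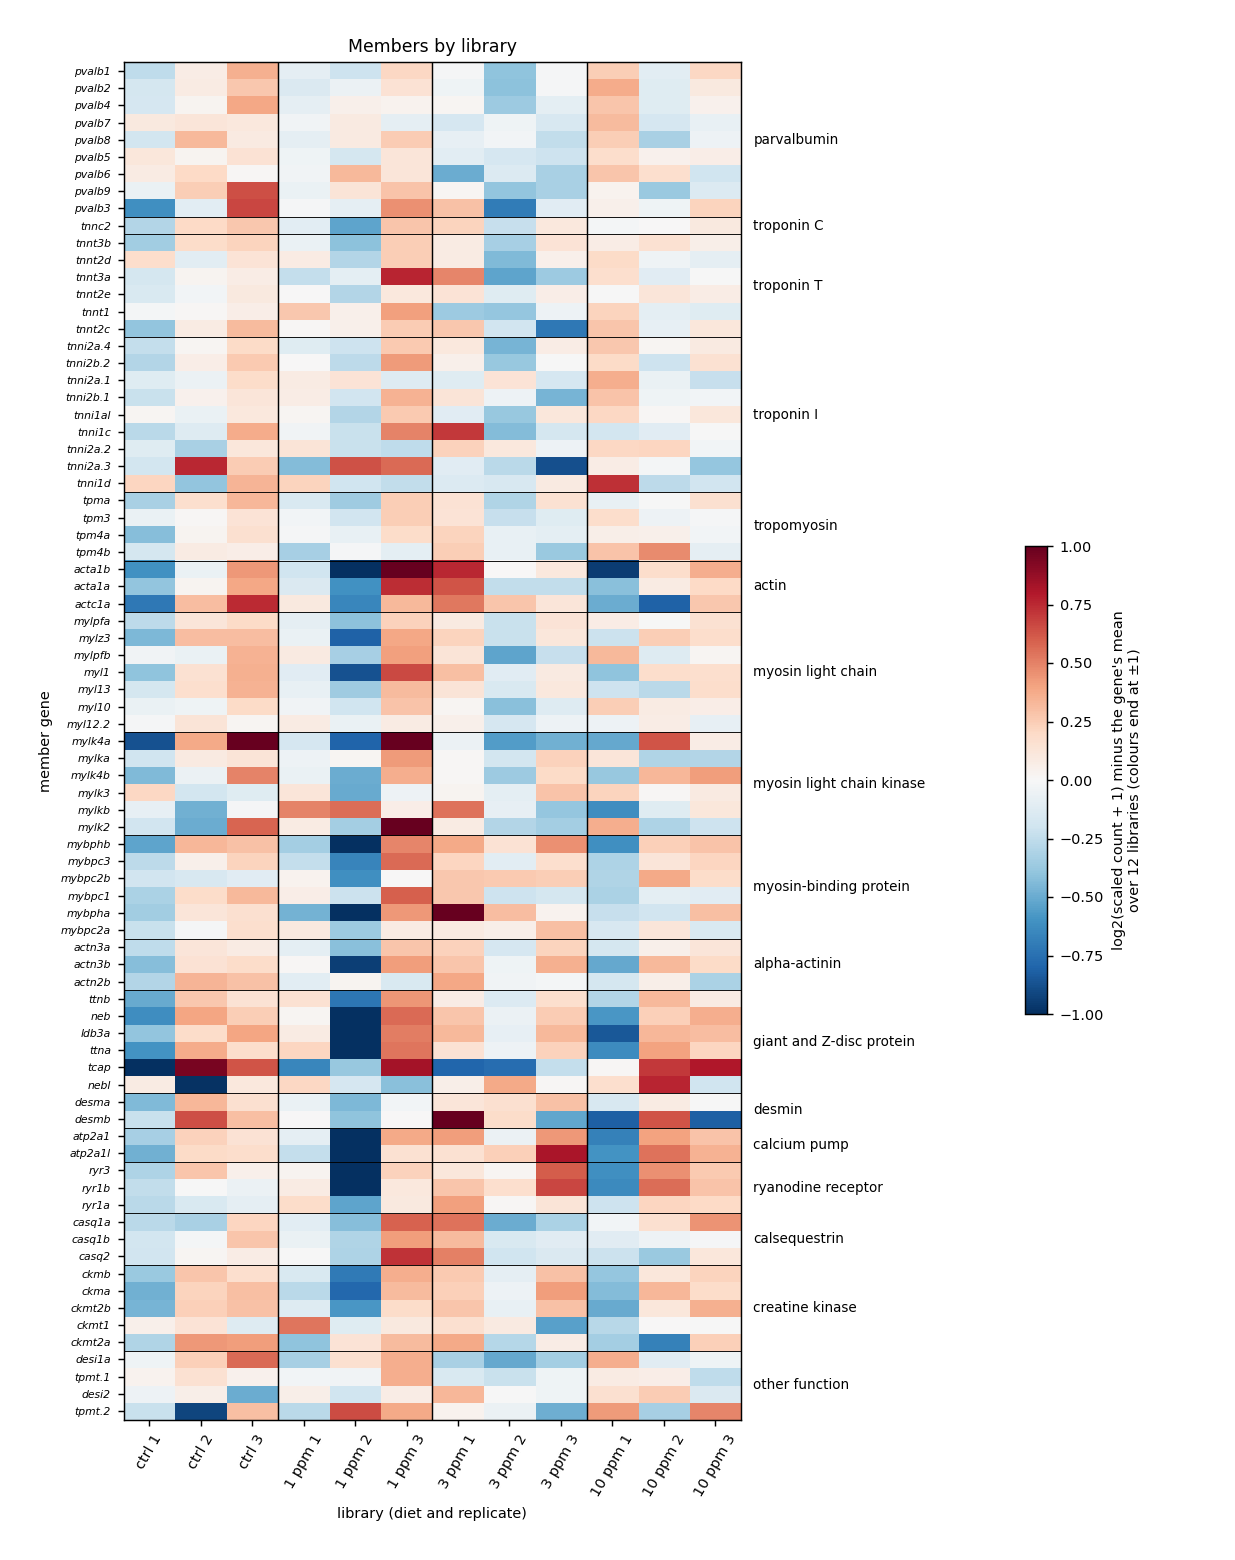
Log2(scaled count + 1) of each of the 79 genes (rows, by role) in each of the 12 libraries (columns), minus the mean of the gene over the libraries; colours end at 1 in either direction. The column of 1 ppm 2 is low for calcium pumps, ryanodine receptors, giant proteins, actins and creatine kinases. Parvalbumins lie on both sides of their means there. Control 1 and 10 ppm 1 are low for many of the same genes as 1 ppm 2.

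The roles took unequal parts in this shared pattern. In 1 ppm library 2 the median deviation from the mean of the gene was -1.21 on the log2 scale for the calcium pumps, -1.13 for the ryanodine receptors, -0.87 for the giant and Z-disc proteins and -0.66 for the actins. In the same library it was -0.36 for the myosin light chains, -0.21 for troponin I, -0.20 for troponin T, -0.13 for tropomyosin and 0.05 for the parvalbumins. Single parvalbumins differed there: pvalb1 had 65004 scaled counts against a mean of 76008, and pvalb4 5861 against 5712. In 10 ppm library 1 the pumps were at -0.64 and the receptors at -0.61, while parvalbumins stood at 0.25, troponin I at 0.21 and troponin T at 0.18. The only troponin C gene, tnnc2, was at -0.52 in 1 ppm library 2 and -0.02 in 10 ppm library 1. In 3 ppm library 2 the order was the other way round, with parvalbumins at -0.36, troponin T at -0.36 and troponin I at -0.27 beside 0.09 for the pumps and 0.02 for the receptors.

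Over the 12 libraries, 27 of the 79 genes had an r over 0.8 with the first component and 9 had an r below 0. The closest included mylz3 (0.98), neb (0.97), ckmb (0.97), actn3b (0.96) and mybpc3 (0.96). The parvalbumins lay between -0.54 (pvalb7) and 0.60, and 0 of the 9 exceeded 0.8. Since the component was computed from these same genes, these values describe how the genes group and test nothing.

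**Figure D5:**
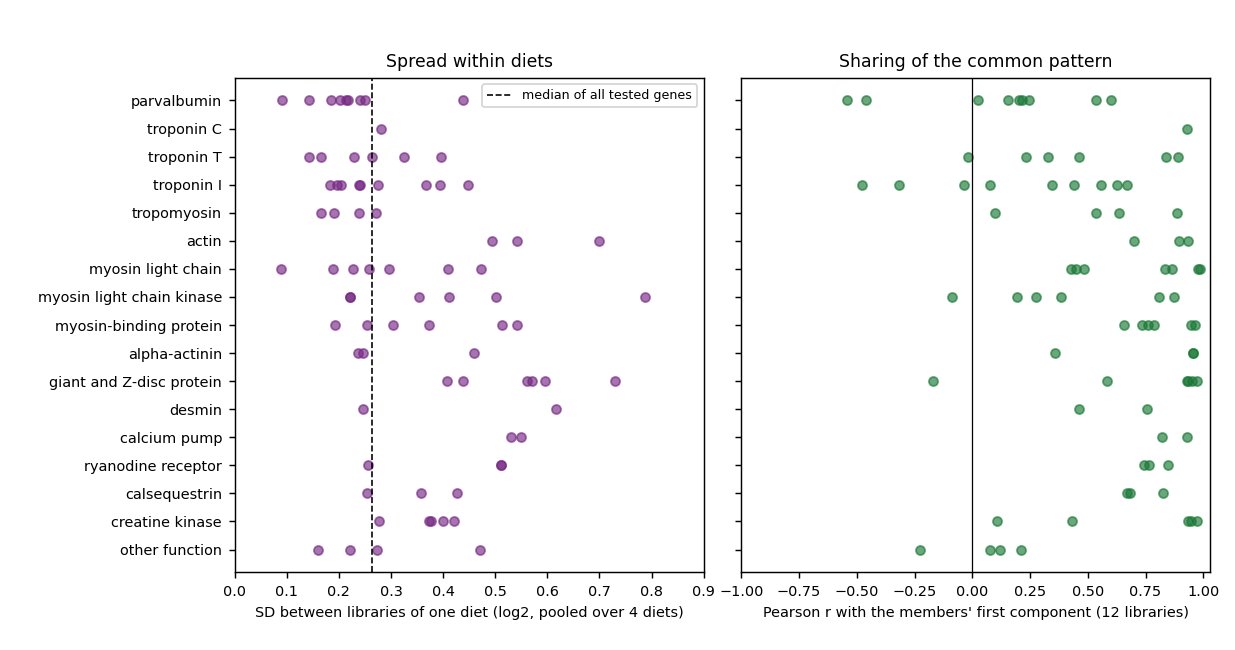
For each of the 79 genes, in rows by role, the SD between libraries of 1 diet on the log2 scale (left, pooled over the 4 diets, with the median of 0.26 over all tested genes as a dashed line) and the Pearson r with their first principal component over 12 libraries (right). Giant proteins, pumps and creatine kinases lie mostly to the right in both panels, parvalbumins mostly to the left.

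Partner genes kept their ratio in some families and not in others. The log2 ratio of pvalb1 to pvalb2 spanned only 0.26 over the 12 libraries, although each gene alone spanned 0.77 and 0.79. The ratio of ckma to ckmb spanned 0.34 beside 1.07 for ckmb, ryr1b to ryr3 0.45 beside 1.87 and 1.73, and ttna to ttnb 0.47 beside 1.56 and 1.17. These pairs moved together, and how reads that fit both genes of a pair were assigned is not given in the sources used here. Across roles the ratios were loose: atp2a1 to pvalb1 spanned 1.43 and acta1b to tpma 1.63. Within a family, desma to desmb spanned 1.69 and tnnt3b to tnnt3a 1.02.

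A length relation accompanied this split. The transcript length implied by the deposited tables (scaled count over FPKM) lay between 0.399 and 0.724 kb for the parvalbumins. It lay between 5.62 and 13.8 kb for the ryanodine receptors, and was 57.9 kb for ttna. This length is uncertain for giant genes. The titin genes ttna and ttnb had 27.3 and 397 FPKM at similar scaled counts, so the lengths implied for them differ widely. The correlations below use these lengths. The Spearman correlation between length and the deviation of a gene was -0.47 in 1 ppm library 2, -0.53 in 10 ppm library 1 and -0.32 in control 1 over the 79 genes. Over all 18390 tested genes the same correlations were -0.14, -0.16 and -0.04. It was positive in all 3 libraries of 3 ppm, at 0.38, 0.45 and 0.33, and 0.45 in 10 ppm library 2, where all tested genes had 0.04, 0.13, 0.10 and 0.19. Genes share the library and are not replicates, and the part of length or RNA quality in the pattern was not tested.

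Markers of other tissues moved as follows. Of 10 heart markers 8 were tested, with a median deviation of -0.44 in control 1 and -0.31 in 1 ppm library 2. In 10 ppm library 1, also low on the first component, it was -0.05, and in 10 ppm library 3 it was -0.30. Their summed scaled count was 1417 to 2055 in the controls, 1428 to 2007 at 1 ppm, 1813 to 2019 at 3 ppm and 1671 to 1914 at 10 ppm. Of 6 neuron markers 5 were tested, with a median of 0.26 in 1 ppm library 2, 0.21 in control 1 and 0.01 in 10 ppm library 1. Their sums were 8904 to 10604, 8800 to 10637, 6761 to 7694 and 8335 to 10473 from control to 10 ppm, so the sums of the 3 ppm libraries were below all others. The genes stmn1b and snap25a, with means of 3471 and 3034, carried most of these sums. At 3 ppm 1 of the 5 neuron genes, elavl3, had a fold change above 0. It had 887, 1042 and 974 scaled counts there, against 981, 885 and 911 in the controls. Of 5 exocrine pancreas markers 4 were tested, and their sums were 24655 to 72017, 27940 to 80849, 35362 to 64603 and 49498 to 63982, with a median of 0.72 in 1 ppm library 2 and -0.81 in 1 ppm library 3. For the 3 tested erythroid markers the median ran from -1.22 in 10 ppm library 1 to 0.54 in 1 ppm library 3. For the 3 liver markers it ran from -0.36 in 1 ppm library 3 to 0.62 in 3 ppm library 1. For the 4 tested smooth muscle markers it ran from -0.28 in 3 ppm library 3 to 0.32 in 3 ppm library 1. No marker found by its symbol, whether above the minimum mean or not, was at 0 in all libraries. The part of tissue makeup in the muscle pattern was not tested.

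Other muscle genes outside the symbol rule followed it in part. Of 96 listed genes for thick filament, thin-filament assembly, Z disc, excitation, energy supply and muscle regulation, 79 were tested. In 1 ppm library 2 their median deviation was -0.44 and 38 were lowest there, and in 1 ppm library 3 the median was 0.28. Of these 79 listed genes, 29 had an r over 0.8 with the first component described above. Among the 16 tested genes for muscle regulation and degradation, 1 did. With limma 0 rose and 3 fell at 3 ppm, and 0 passed at 1 or 10 ppm. An unadjusted limma p under 0.05 was found for 1, 9 and 6 of the 79 at 1, 3 and 10 ppm, beside the 1.96%, 10.4% and 5.71% of all tested genes. The 3, which are all the genes called at 3 ppm among the 18390, were the fast myosin heavy chain genes myhz2, myhc4 and myha, which are listed at 0 in all 3 ppm libraries, while myhz2 had 14832 to 35539 scaled counts in the other 9. The related heavy chain gene myhz1.1 had 65212, 52061 and 78887 at 3 ppm against 56309, 67732 and 59050 in the controls, and all light chain genes had fragments at 3 ppm. The list as a whole had median log2 fold changes of -0.09, 0.09 and 0.02.

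By Pearson r over the 12 libraries, the genes outside the rule most like the first component were igfn1.1 (0.99), dhrs7cb (0.98), smyd1a (0.97), tmod4 (0.97), aldoab (0.97), prrc2c (0.97), eya1 (0.96), capza1b (0.96), sgca (0.96) and vcp (0.95). The gene smyd1a encodes a muscle methyltransferase, tmod4 a tropomodulin that caps thin filaments, aldoab a muscle-type aldolase and sgca alpha-sarcoglycan. The first of them, igfn1.1, had 693, 1157 and 1295 scaled counts in the controls, 947, 528 and 1391 at 1 ppm, 1305, 796 and 1000 at 3 ppm and 713, 1089 and 1180 at 10 ppm. Without the 2 libraries of most extreme score (1 ppm 2 and control 1) these 10 genes kept an r of 0.89 to 0.97. The least like were ano11 (-0.95), mtmr7a (-0.94), atxn1b (-0.92), spock3 (-0.90) and dffb (-0.90). Of 10477 named genes of mean 50 or more, 184 had an r over 0.8 and 85 an r under -0.8.

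At the edge of the minimum mean of 10, the genes just inside were tpmt.2 (mean 12.0), mylk2 (16.1), nebl (19.9) and tnni1d (20.1). Outside were a second row named mylka (ENSDARG00000090738) with 5.33, tnni1a with 0.875 and desi1b, listed at 0 in every library.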

How the data were processed

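RNA was sequenced from 12 pools of 5 embryos with TruSeq libraries and paired reads of 100 bases, per the labels. CASAVA 1.8.2, cutadapt, FastQC, TopHat and Cuffnorm and the build Zv9 are named in the submitters' processing notes. Which step each served, and with what settings, is not given in the sources used here. In the deposited table of counts each value is a scaled signal, a fragment count divided by 1 size factor per library. Of the nonzero values in the low range examined, 98.2% to 98.6% in a library are whole multiples of 1 step (tolerance 0.02). Higher values were not part of this share. The deposited values are therefore not raw counts. The deposited FPKM values were computed by the authors from length and library total, and were used for levels.

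limma 3.58.1 (R 4.3.3) was fitted to log2(scaled count + 1) of all 18390 genes with a mean of at least 10, using all 12 libraries, robust moderation and a trended prior variance. Two-sided p-values were adjusted over all tested genes by the Benjamini-Hochberg method, with 0.05 as the threshold. Fold changes on this scale understate changes of low genes. The fit was tested on simulated data. Alternatives were another rescaling, other minimum means and pseudocounts, FPKM, limma-voom, a replicate block, the clock score as covariate, each library left out in turn and dose scales other than rank. Genes were chosen for naming by level within a role, smallest p, widest and narrowest range, and place near the minimum. The genes and lists were chosen with earlier results of these data known. Replicate numbers were not used in the main fit and entered only as the block of the alternative named above. No coordinates or sequences are given. Python 3.11.15 and matplotlib 3.10.9 made tables and figures.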

Additional observations from a re-analysis of the deposited data

How the results depend on the processing

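Of the 79 genes, 0 passed in any comparison to which each of the 25 alternatives applies. With a minimum mean of 50, 71 of them were tested, and the dose scales bear on the trend only. In the contrasts with control and the trend, the smallest limma adjusted p of any of the 50 named genes under these alternatives was 0.112. The F-test was not part of this minimum. Over all genes the number called differed in places. At 3 ppm, 6 genes were called with the clock score as a covariate in place of 3. At 10 ppm, 1 was called with FPKM at either pseudocount (0.1 or 1) in place of 0. In the trend, 4 became 1 with FPKM at either pseudocount, 1 with the replicate block, and 0 with the clock score, with dose in ppm, with log2(ppm + 1), with a minimum mean of 50 and with no filter. Leaving out 1 library gave 3 to 17 genes at 3 ppm, 0 to 41 at 10 ppm, 3 to 9 in the F-test and 0 to 146 in the trend, with each highest value from leaving out control replicate 1. The causes were not tested. Replicate numbers gave no clear pairing of the libraries. Between diets, 18 pairs with the same number had correlations of -0.227 to 0.472 (median -0.0078), 6 of them over 0.1. The 36 pairs with different numbers had -0.561 to 0.269 (median -0.0033), and 5 of 12 libraries correlated best with their own number. A partial pairing is not excluded. Of 4634 values of the named genes under alternatives, 24 moved by more than the SD within diets, 21 of them with the clock score and 2 with FPKM (tnni2a.2 at 10 ppm, 0.53 or 0.50 in place of 0.24). limma-voom on recovered fragments was chosen after seeing the data. The planned fits with count models were not run, since the deposited values are not counts. Depth was 5.63 to 11.8 M fragments with 3 libraries a diet, and these limit the precision.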
